A study of Mus musculus with 16 samples.

Results

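The Id, Twist, Hes and Hey genes encode helix-loop-helix regulators, and 8 of them (Id1, Id2, Id3, Id4, Twist1, Twist2, Hes1 and Hey1) were followed in the mouse preadipocyte line 3T3-L1. They were found by gene symbol in the platform's annotation, among probes that name a single gene. All 8 were on the array, with 2 probes for Id1 and 1 for each of the others, or 9 of the 29456 probes that named 1 of 19640 genes. Cultures were given the synthetic glucocorticoid dexamethasone (dex) or DMSO as vehicle, and total RNA was taken at 2 h and at 36 h. Each of the 4 groups (DMSO 2 h, dex 2 h, DMSO 36 h and dex 36 h) had 4 biological replicates per the labels, and no group had another agent or a genetic change. The sources used here do not give the dose of dex or the state of the cultures, and the line stands for preadipocytes of 1 origin. Each sample was labelled in Cy5 and hybridised with a pool of the samples in Cy3. A value is therefore the log ratio of a sample to the pool, whose base is not stated and was taken as 2. It orders the groups for 1 probe but gives no level of 1 gene against another.

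Id proteins have a helix-loop-helix domain without the basic region that contacts DNA, so they pair with the E proteins Tcf3, Tcf4 and Tcf12 and keep them off their E-box sites. Twist1 and Twist2 do have the basic region, bind E boxes together with E proteins, and mark mesenchymal progenitors. Hes1 and Hey1 are repressors that Notch signalling induces, while BMP signalling through Smad proteins is a known inducer of Id genes. Members of all of these families have been linked to the control of adipocyte differentiation.

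The stretches before the start sites of 4 members are shown because these 4 moved most with dex and went opposite ways within each family, Id2 and Twist1 down and Id4 and Twist2 up. The RefSeq promoter table (build GRCm38.p6) held 5 of the 8 members, the fifth being Id3. Each run is the 250 bases before the annotated start, read 5′ to 3′ in the direction of the gene. The window of Id2 is chr12:25096093-25096342 on the minus strand, and those of Id4 (chr13:48260866-48261115), Twist1 (chr12:33957421-33957670) and Twist2 (chr1:91801211-91801460) are on the plus strand. Capitals mark E boxes (CANNTG), CCAAT boxes and the GC element GGCGCC on either strand, none of which overlap here.
Id2: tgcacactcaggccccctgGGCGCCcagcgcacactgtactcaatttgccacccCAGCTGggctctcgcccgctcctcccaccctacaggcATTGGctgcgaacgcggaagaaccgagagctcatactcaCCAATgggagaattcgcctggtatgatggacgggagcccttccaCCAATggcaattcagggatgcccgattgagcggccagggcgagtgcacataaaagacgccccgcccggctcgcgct
Id4: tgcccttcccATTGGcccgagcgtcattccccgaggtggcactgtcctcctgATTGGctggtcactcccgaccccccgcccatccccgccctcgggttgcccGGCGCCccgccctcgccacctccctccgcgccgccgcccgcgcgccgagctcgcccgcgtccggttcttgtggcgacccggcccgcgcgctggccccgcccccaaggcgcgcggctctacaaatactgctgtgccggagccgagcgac
Twist1: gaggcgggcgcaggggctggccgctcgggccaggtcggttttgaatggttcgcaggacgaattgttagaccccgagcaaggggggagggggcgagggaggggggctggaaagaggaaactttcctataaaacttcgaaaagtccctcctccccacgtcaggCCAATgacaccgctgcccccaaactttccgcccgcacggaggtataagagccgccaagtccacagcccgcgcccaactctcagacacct
Twist2: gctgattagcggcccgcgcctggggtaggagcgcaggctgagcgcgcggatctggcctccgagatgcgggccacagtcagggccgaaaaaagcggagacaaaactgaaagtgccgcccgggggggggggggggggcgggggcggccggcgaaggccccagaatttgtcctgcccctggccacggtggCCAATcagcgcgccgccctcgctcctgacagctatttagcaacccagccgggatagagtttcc

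Id2 and Id4 differed in the marked letters. Twist1 and Twist2 did not, as each held 1 CCAAT box and no E box or GGCGCC. An E box was found in the window of Id2, starting 196 bases before the gene, and in none of the other 4 windows, while 66.2% of 32851 promoter windows of this length held one. The CCAAT box occurred 3 times in Id2, 2 times in Id4 and 1 time each in Twist1 and Twist2, against 33.8% of all windows with at least 1. GGCGCC was present in Id2 and Id4 and occurs in 9.59% of windows. The hexamer AGAACA of the glucocorticoid response element was in 0 of the 5 windows and in 16.1% of all. The Smad element CAGAC was found in Id3 (2 sites) and Twist1 (1 site), with a share of 42.2% over all windows. The N box CACNAG, which Hes proteins bind, was found in Id4 alone among the 5 (36.7% of all windows), as was the core TGGGAA of the site of Rbpj, the DNA-binding partner of Notch (21.6%). Such matches describe letters in a short window and not binding.

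The arrays differed in noise. Their medians lay between -0.011 and 0.0083, and the SD of an array's deviations from its group means was 0.168 to 0.435 at 2 h and 0.108 to 0.205 at 36 h. For DMSO 2 h replicate 4 the correlation with its 3 fellow arrays averaged -0.104. Values without it are given below where a member's call was lost or made without it or its change at 2 h moved by over 1.5 times. No value of a member was missing. The cell type was checked on preadipocyte markers, of which 9 of 10 were on the array, but ratios to a pool cannot show whether a marker is present. At 36 h 5 of the 9 were lower with dex (median log2 change -0.52, against 4.96% of all genes lower) and 0 were higher (6.88%). At 2 h 1 of the 9 was lower (1.21% of all genes) and 0 were higher (1.97%). Of 8 macrophage, 8 endothelial and 8 epithelial markers, 1, 0 and 1 passed at 36 h (Lyz2 lower and Krt8 higher, named after their values were seen), and 0 of these 24 passed at 2 h. The shares at 36 h were 12.5%, 0% and 12.5%, near the 11.7% of all genes or below it, and 3.18% of all genes passed at 2 h. Their part in the results was not tested. In bulk RNA, fewer cells of a type and less RNA per cell cannot be told apart.

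At 2 h of dex Twist2 rose, while Twist1 and Id2 fell. Thus 3 of the 8 genes passed (a probe with a limma adjusted p under 0.05 over all 38467 probes), against 3.18% of all genes. In the upward direction it was 1 of 8 against 1.97%, and downward 2 of 8 against 1.21%. At 36 h 6 of 8 passed, against 11.7% of all genes, 4 of them upward (background 6.88%) and 2 downward (4.96%). Id1, Id3, Id4 and Twist2 were higher with dex and Id2 and Twist1 lower, while Hes1 and Hey1 passed at neither time. The plot of each array shows that the Id genes were split, with Id2 far below its vehicle at 36 h and Id4 far above.

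**Figure D1:**
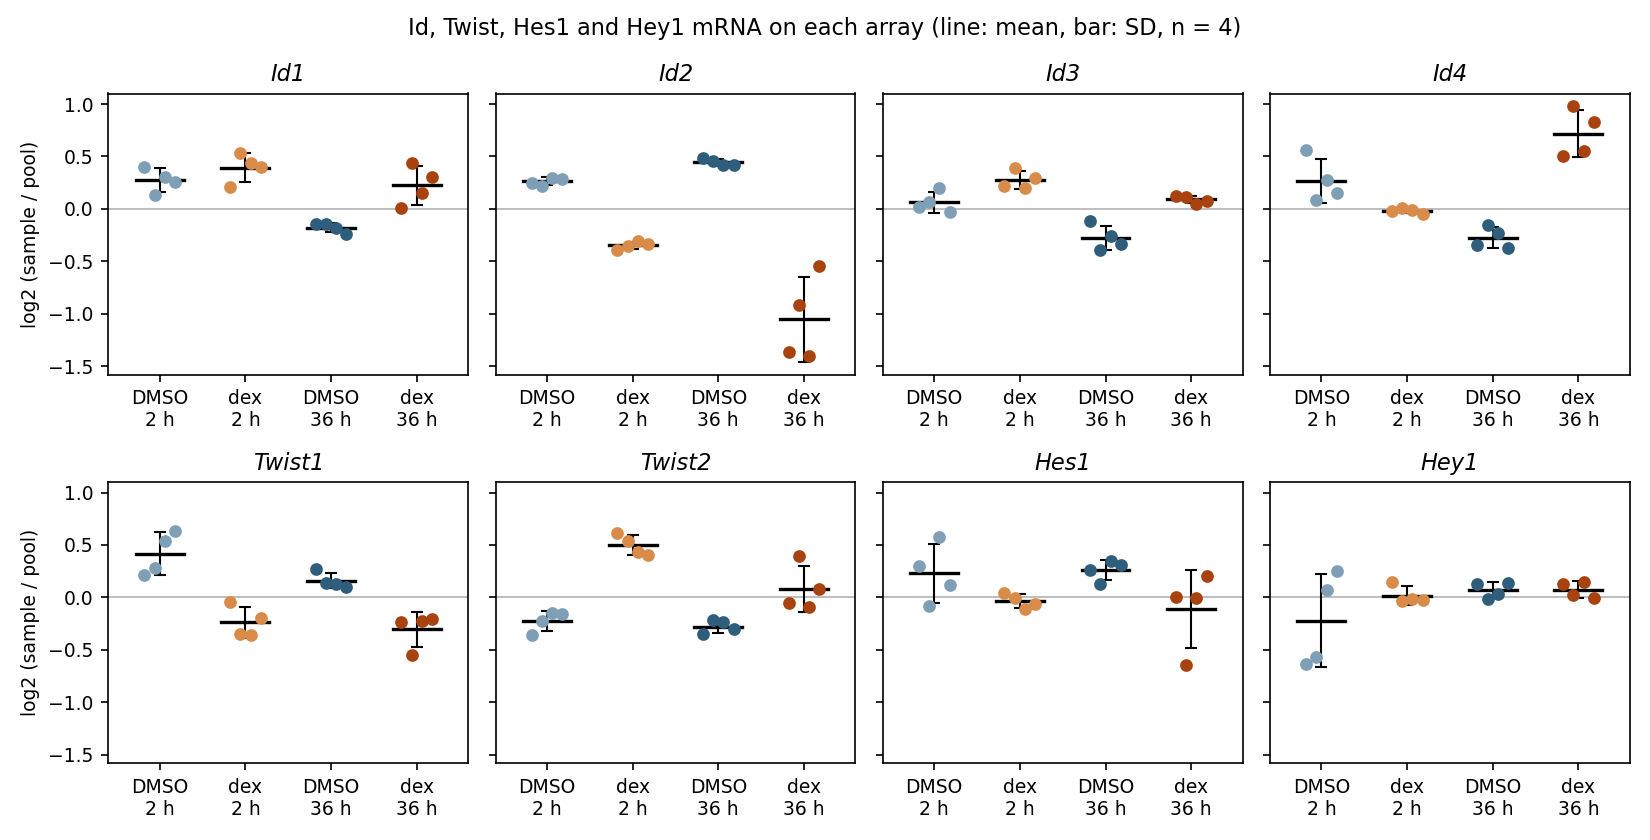
Log2 ratio of sample to pool (vertical axis) for each of the 4 arrays of the DMSO and dex groups at 2 h and 36 h, 1 panel per gene, with the mean as a line and the SD as a bar (n = 4). Id1 is shown by probe mMC014959. The Id2 values of the dex arrays lie below all DMSO arrays at both times, and the Id4 values at 36 h lie above them.

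Id2, an inhibitor of E proteins that is widely expressed in dividing progenitors, gave log2 ratios of 0.25, 0.21, 0.30 and 0.29 in DMSO at 2 h and of -0.39, -0.35, -0.31 and -0.33 in dex. At 36 h the ratios were 0.48, 0.46, 0.42 and 0.41 in DMSO and -1.36, -0.91, -1.40 and -0.54 in dex. The dex arrays lay below the DMSO arrays at both times, and the spread was small in every group but dex 36 h, whose SD of 0.404 exceeded that of 96.9% of probes in that group. Id2 was thus 1.52-fold lower at 2 h (-0.61 ± 0.14 as log2 change ± SE, n = 4 arrays in each group, adjusted p = 0.0297 in limma). At 36 h it was 2.82-fold lower (-1.497 ± 0.14, adjusted p = 4.08e-06), rank 170 by p among 38467 probes. This call held in all 26 alternatives, but its size depended on the processing. It ran from -1.67 to -1.38 without single arrays and reached -2.20 under other settings. The deepening from 2 h to 36 h passed in its own test, with a difference between the effects of -0.89 ± 0.20 (adjusted p = 0.0247). In dex-treated cells alone Id2 fell by 0.71 ± 0.14 between the times (adjusted p = 0.0191), whereas DMSO cells gave 0.18 ± 0.14 (adjusted p = 0.668). The fall in dex was lost without dex 2 h replicate 3 or 4 or dex 36 h replicate 1 or 3 (adjusted p from 0.0552 to 0.0757) and in a fit of the dex groups alone (adjusted p = 0.108).

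The wide dex 36 h group enters the shared variance of Id2 and so its error at 2 h. In a fit of the 2 h arrays alone the change had an SE of 0.0785 and an adjusted p of 0.00891. The Id2 call at 2 h was lost without any single one of the 8 arrays of that time (adjusted p from 0.0506 to 0.0838), although the change stayed between -0.62 and -0.59. It was also lost with array weights (adjusted p = 0.0875), with quantile normalization (adjusted p = 0.237) and by log-odds above 0, the call rule of the design text (log-odds -0.34). The difference between the effects of Id2 was lost without dex 2 h replicate 3 or 4, DMSO 36 h replicate 1, 2 or 4, or dex 36 h replicate 1 (adjusted p from 0.0512 to 0.0588). Its size ran from -1.06 to -0.77 without single arrays and reached -1.58 under other settings.

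Id4, the family member best known from brain and bone, went the other way and only late. Its ratios were 0.56, 0.09, 0.27 and 0.15 in DMSO at 2 h and -0.02, 0.0049, -0.0095 and -0.04 in dex, so that the dex arrays were nearly alike and lay below all DMSO arrays. The change at 2 h was -0.29 ± 0.12 and did not pass (adjusted p = 0.361). At 36 h the ratios were -0.34, -0.16, -0.23 and -0.37 in DMSO against 0.50, 0.98, 0.56 and 0.82 in dex, with the groups far apart. Id4 was 1.98-fold higher with dex at that time (0.99 ± 0.12, adjusted p = 4.81e-05, rank 286). The difference between the dex effects was 1.27 ± 0.16 (adjusted p = 3.50e-04) and passed without each single array and under every other setting tried. Both arms moved over time, as Id4 rose by 0.73 ± 0.12 in dex-treated cells (adjusted p = 0.00451) and fell by 0.54 ± 0.12 in DMSO (adjusted p = 0.0427). The call in DMSO rested on single arrays: it was lost without any one of 11 of the 16 arrays (every array of dex 2 h and DMSO 36 h, DMSO 2 h replicates 1 and 3, and dex 36 h replicate 4; adjusted p from 0.0503 to 0.157).

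Id3 and Id1, which like other Id genes are known targets of BMP signalling, were moderately higher with dex at 36 h. For Id3 the DMSO 36 h ratios were -0.12, -0.39, -0.26 and -0.34 and the dex ratios 0.12, 0.12, 0.05 and 0.08, with no overlap. The change was 0.37 ± 0.08, or 1.29-fold (adjusted p = 0.00838). At 2 h the Id3 ratios ran from -0.03 to 0.20 in DMSO and from 0.201 to 0.392 in dex, groups that touch but do not overlap, and the change of 0.21 ± 0.08 did not pass (adjusted p = 0.299). Over time Id3 gave -0.34 ± 0.08 in DMSO (adjusted p = 0.0648) and -0.19 ± 0.08 in dex (adjusted p = 0.314), with group means of 0.06 in DMSO at 2 h and 0.09 in dex at 36 h. The Id3 change in DMSO passed without DMSO 2 h replicate 4 (-0.37, adjusted p = 0.0352), with array weights (-0.41, adjusted p = 0.0244), with quantile normalization (-0.42, adjusted p = 0.0129) and with probes of a gene averaged (adjusted p = 0.0421).

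Id1 was read by 2 probes that disagreed in precision. Probe mMC014959 gave -0.14, -0.14, -0.18 and -0.24 in DMSO at 36 h and 0.01, 0.44, 0.15 and 0.30 in dex, a change of 0.40 ± 0.10 or 1.32-fold (adjusted p = 0.0199). All dex arrays lay above all DMSO arrays, but the gap to the lowest dex array was small. The second probe, mMA032901, gave 0.06 ± 0.23 at 36 h (95% interval -0.44 to 0.55, adjusted p = 0.971), an interval that holds the value of the first. It spread from -0.79 to 0.71 over the DMSO 2 h arrays, and the lowest was replicate 4. With both probes averaged Id1 no longer passed at 36 h (0.23 ± 0.14, adjusted p = 0.372), nor did the first probe without DMSO 36 h replicate 3 or 4. At 2 h the first probe gave 0.12 ± 0.10 (adjusted p = 0.719) and the second 0.33 ± 0.23 (adjusted p = 0.66). Without DMSO 2 h replicate 4 the second probe gave 0.04 ± 0.16 (adjusted p = 0.936). In DMSO cells the first probe fell by 0.45 ± 0.10 from 2 h to 36 h (adjusted p = 0.0483), a call lost without any one of 11 arrays (DMSO 2 h replicates 1, 2 and 3, dex 2 h replicates 3 and 4, every array of DMSO 36 h, and dex 36 h replicates 3 and 4). The second probe gave -0.015 ± 0.23 in this contrast (adjusted p = 0.991), and the call was lost with both probes averaged.

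Twist1 and Twist2, close relatives with a nearly identical helix-loop-helix domain, responded in opposite directions from the first time point. Twist2 ratios at 2 h were -0.35, -0.22, -0.15 and -0.16 in DMSO and 0.61, 0.53, 0.44 and 0.40 in dex. The groups were well apart, and Twist2 was 1.65-fold higher (0.72 ± 0.10, adjusted p = 5.04e-04, rank 225). Twist1 ratios at 2 h were 0.21, 0.28, 0.54 and 0.64 in DMSO and -0.04, -0.35, -0.36 and -0.19 in dex. It was 1.57-fold lower (-0.65 ± 0.11, adjusted p = 0.00316, rank 390), with a wider spread than Twist2. In a fit of the 2 h arrays alone the Twist1 change no longer passed (adjusted p = 0.0697), whereas Twist2 did (adjusted p = 0.00955).

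At 36 h both Twist genes kept their direction with smaller changes. Twist2 ratios were -0.35, -0.22, -0.24 and -0.30 in DMSO and -0.05, 0.39, -0.09 and 0.08 in dex, 1.28-fold higher (0.36 ± 0.10, adjusted p = 0.0353). Twist1 ratios were 0.27, 0.14, 0.13 and 0.10 in DMSO and -0.23, -0.55, -0.23 and -0.20 in dex, 1.38-fold lower (-0.46 ± 0.11, adjusted p = 0.0176). Neither pair of groups overlapped. The smaller size at 36 h did not pass as a difference between the times, as the effects differed by -0.36 ± 0.14 for Twist2 (adjusted p = 0.266) and by 0.19 ± 0.16 for Twist1 (adjusted p = 0.646). The Twist2 call at 36 h was lost without any one DMSO 36 h array or without dex 36 h replicate 2 or 4 (adjusted p from 0.0606 to 0.107), without the flattest probes (adjusted p = 0.0564) and by log-odds above 0. The Twist1 call was lost without DMSO 36 h replicate 1 (adjusted p = 0.0657) and by log-odds above 0. Over time in dex Twist2 gave -0.41 ± 0.10 (adjusted p = 0.0512), and in DMSO it gave -0.06 ± 0.10 (adjusted p = 0.895). The change in dex over time passed under 5 alternatives. Leaving out replicate 1 or 4 of DMSO 2 h gave an adjusted p of 0.0358 or 0.0387, and leaving out replicate 2 of dex 36 h gave -0.52 with an adjusted p of 0.0063. It also passed with array weights (-0.45, adjusted p = 0.00133) and with probes averaged (adjusted p = 0.0446). The difference between the Twist2 effects passed without dex 36 h replicate 2 (-0.46, adjusted p = 0.048).

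**Figure D2:**
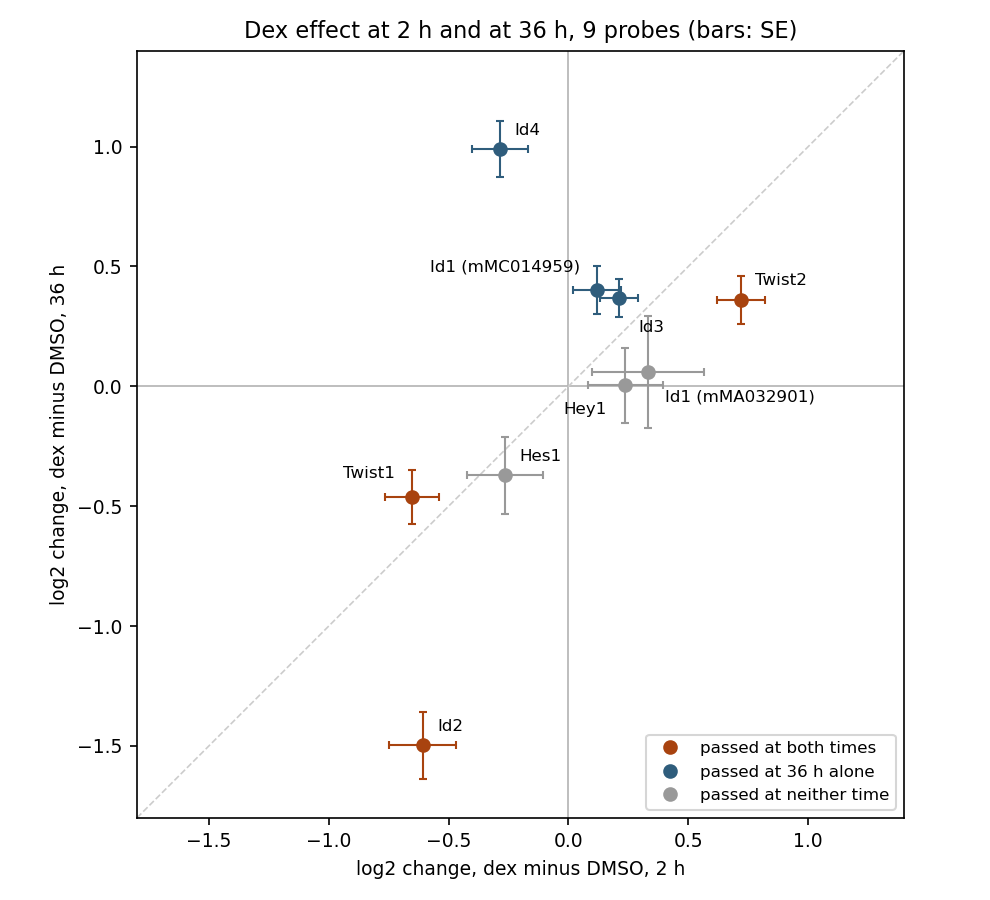
Log2 change with dex at 2 h (horizontal axis) against that at 36 h (vertical axis) for the 9 probes, with the SE of each as bars and the line of equal effect dashed. Id2 (-0.61 and -1.497) and Id4 (-0.29 and 0.99) lie farthest from the line, and Twist1 and Twist2 sit in opposite quadrants.

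Hes1 and Hey1, the repressors downstream of Notch, had no call in any of the 5 contrasts. Hes1 ratios were 0.30, -0.08, 0.58 and 0.12 in DMSO and 0.04, -0.01, -0.11 and -0.06 in dex at 2 h, and 0.26, 0.13, 0.35 and 0.31 against 0.01, -0.64, -0.01 and 0.21 at 36 h. Groups overlapped at both times. The changes were -0.27 ± 0.16 (adjusted p = 0.6) and -0.37 ± 0.16 (95% interval -0.71 to -0.03, adjusted p = 0.186), so a fall of Hes1 at 36 h is not shown here, nor is its absence. With noisy arrays weighted down Hes1 passed at 36 h (-0.30, adjusted p = 0.0201). Under that setting 9087 of all 19640 genes passed at 36 h, against 2300 in the main fit. Hey1 gave 0.24 ± 0.16 at 2 h (adjusted p = 0.635) and 0.0043 ± 0.16 at 36 h (95% interval -0.33 to 0.34, adjusted p = 0.999). Its DMSO 2 h ratios were -0.63, -0.57, 0.07 and 0.25, the widest of its 4 groups, while at 36 h all 8 arrays lay between -0.02 and 0.15. Without DMSO 2 h replicate 4 the Hey1 change at 2 h was 0.40 ± 0.13 (adjusted p = 0.153).

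For each array, the member probes at which it held the highest or lowest value of its group were counted. Dex 36 h replicate 2 held the highest or lowest value of its group for 6 of 9 probes, highest for both Id1 probes, Id4 and Twist2 and lowest for Twist1 and Hes1. Other arrays held an extreme for 1 to 7 probes, dex 2 h replicate 1 having the 7. DMSO 36 h replicates 2 and 4 also had 6 each, so by this count dex 36 h replicate 2 did not stand apart. Without dex 36 h replicate 2, the change at 36 h was 0.26 ± 0.08 for Twist2 (adjusted p = 0.0606), -0.38 ± 0.11 for Twist1 (adjusted p = 0.0389) and -0.19 ± 0.13 for Hes1 (adjusted p = 0.402). It was 0.90 ± 0.11 for Id4 (adjusted p = 1.80e-04), 0.33 ± 0.10 for the first Id1 probe (adjusted p = 0.0431) and -1.54 ± 0.15 for Id2 (adjusted p = 1.84e-05).

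Overlap between the arrays of each pair of groups was counted as well. With dex at 2 h, 5 of 9 member probes had no overlap with DMSO, against 5.88% of all probes, with 2 above (background 3.08%) and 3 below (2.8%). At 36 h it was 6 of 9 against 26.8%, with 4 above (13.0%) and 2 below (13.8%). From 2 h to 36 h in DMSO, 4 of 9 probes had no overlap (background 10.5%), 1 above (4.08%) and 3 below (6.44%). In dex over time it was also 4 of 9 (11.9%), 1 above (5.31%) and 3 below (6.57%). By the test, 2 members passed in DMSO over time against 1.26% of all genes, Id1 (on 1 of 2 probes) and Id4. Both were lower (background 0.993%), and 0 were higher (0.27%). In dex over time 2 passed against 2.43%, Id4 higher (1.04%) and Id2 lower (1.41%). The difference between the dex effects passed for 2 members against 3.48%, Id4 upward (2.12%) and Id2 downward (1.36%). Over the 4 groups Id2 was highest in DMSO 36 h (mean 0.44), followed by DMSO 2 h (0.26), dex 2 h (-0.35) and dex 36 h (-1.05), and the first neighbours did not differ by the test. Id4 had the order dex 36 h (0.72), DMSO 2 h (0.27), dex 2 h (-0.02) and DMSO 36 h (-0.27). There DMSO 2 h and dex 2 h did not differ by the test, and the other neighbours in the order were not tested against each other.

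The partners and inducers of these proteins came from lists of related genes. Of 19 measured E proteins and other mesenchymal helix-loop-helix genes, 0 rose and 1 fell at 2 h (5.26% called, against 3.18% of all genes), and 1 rose and 3 fell at 36 h (21.1%, against 11.7%). The list's median log2 change was -0.07 at 2 h and -0.04 at 36 h, against -0.01 and -0.0012 over all genes. Bhlhe40, a repressor that also acts in the circadian clock, fell by 1.11 ± 0.14 at 2 h (adjusted p = 1.61e-04) and gave -0.0044 ± 0.14 at 36 h. At 36 h Atoh8 (-0.74 ± 0.13) and Hand2 (-0.56 ± 0.11), a factor of limb and heart mesenchyme, were lower, and Bhlhe41, the relative of Bhlhe40, was higher (0.50 ± 0.09). Among the E proteins that Id proteins bind, Tcf12 was lower at 36 h on 1 of 2 probes (-0.36 ± 0.10, adjusted p = 0.0327, the other -0.10). Tcf4 gave -0.42 ± 0.13 (adjusted p = 0.0571) and Tcf3 -0.08 ± 0.16 (adjusted p = 0.914) at that time, with their other probes at 0.07 and -0.01. At 2 h none of the 3 passed, with -0.26 for Tcf3 and 0.09 for both Tcf4 and Tcf12. Of 8 other Hes and Hey genes 0 passed in limma at either time, and 0 at 2 h and 1 at 36 h had an unadjusted p under 0.05.

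Of 29 measured Notch pathway genes, 1 rose (1.97% of all genes) and 1 fell (1.21%) at 2 h, or 6.9% called against 3.18%. At 36 h 2 rose (6.88% of all genes), 1 fell (4.96%) and 1 had probes in both directions. That was 13.8% called, near the 11.7% of all genes. The median changes were -0.07 and -0.02. The receptor gene Notch1 fell by 0.74 ± 0.15 at 2 h (adjusted p = 0.0108) and gave -0.48 ± 0.15 at 36 h (adjusted p = 0.057). Lfng, a glycosyltransferase that modifies Notch receptors, rose by 0.86 ± 0.12 at 2 h and by 0.97 ± 0.12 at 36 h on 1 of 2 probes, while its other probe gave 0.63 and -0.16. Dlk1, the preadipocyte marker Pref-1 and a non-canonical ligand, was lower with dex than with DMSO at 36 h (-0.86 ± 0.17, its other probe -0.66). Over time its quoted probe gave 0.68 ± 0.17 in DMSO (adjusted p = 0.0871) and -0.18 ± 0.17 in dex (adjusted p = 0.702). For the corepressor gene Tle1 the quoted probe fell by 0.74 ± 0.10 at 36 h, and its other probes rose by 0.53 and 0.68. The ligand gene Jag1 gave -0.54 ± 0.16 at 36 h (adjusted p = 0.0553), and Rbpj -0.37 ± 0.11 at 2 h (adjusted p = 0.11) and -0.29 ± 0.11 at 36 h (adjusted p = 0.106). The other Rbpj probes lay between -0.25 and 0.10 at 2 h and between 0.12 and 0.15 at 36 h.

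The BMP and Smad list had the largest share of calls among the lists of related genes. At 2 h 4 of its 32 genes rose (1.97% of all genes) and 3 fell (1.21%), or 21.9% called against 3.18%. In a fit of the 2 h arrays alone 2 genes of the list passed instead of 7. At 36 h 2 rose (6.88% of all genes) and 8 fell (4.96%), or 31.2% called against 11.7%. Its median changes were -0.02 and -0.09. Acvrl1, a type I receptor, rose by 1.84 ± 0.17 at 2 h (adjusted p = 1.07e-05) and by 1.04 ± 0.17 at 36 h (adjusted p = 0.00106). Fst, encoding the activin antagonist follistatin, rose by 1.24 ± 0.18 at 2 h (adjusted p = 5.84e-04) and gave -0.11 ± 0.18 at 36 h (adjusted p = 0.854). The BMP antagonist gene Grem1 fell by 0.84 ± 0.10 at 2 h and by 0.77 ± 0.10 at 36 h. The inhibitory Smad genes, which like Id genes are induced by BMP signalling, were lower. Smad6 fell by 0.52 ± 0.10 at 2 h (adjusted p = 0.00507) and by 0.64 ± 0.10 at 36 h (adjusted p = 4.20e-04). Smad7 gave -0.07 ± 0.16 at 2 h (adjusted p = 0.915) and fell by 0.83 ± 0.16 at 36 h (adjusted p = 0.00288). The ligand gene Bmp4 gave -0.08 ± 0.13 at 2 h and -0.10 ± 0.13 at 36 h and did not pass, and its other probe gave 0.16 and 0.10. At 36 h the changes of Smad6, Smad7 and Id2 were negative, and those of Id1 (first probe), Id3 and Id4 were positive. Whether BMP signalling had a part in these changes was not tested.

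**Figure D3:**
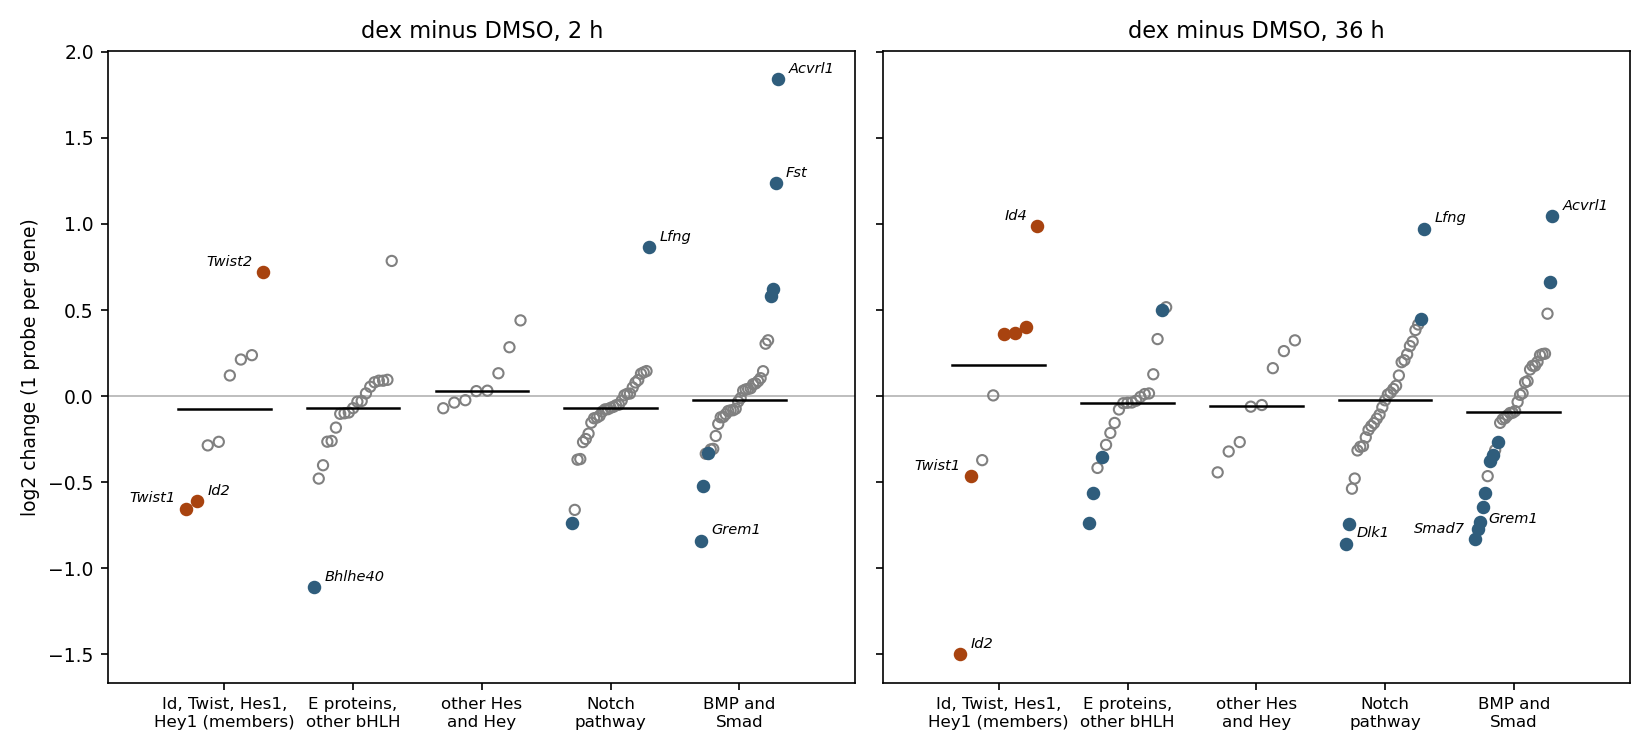
Log2 change with dex at 2 h (left) and 36 h (right) for the 8 members and the genes of 4 related lists, 1 probe per gene, with filled points for an adjusted p under 0.05 and lines for medians. Acvrl1 (1.84) and Fst (1.24) at 2 h and Id2 (-1.497) at 36 h are the points farthest from 0.

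The genes most like each member over the 16 arrays are given by Pearson's r, as a description, since all arrays share the pool and the groups. For Id2 they were Thbs1, encoding the matrix protein thrombospondin 1 (r = 0.968), 9430052C07Rik (0.965) and Lncbate3 (0.964). For Id4 they were Ubqln2 (0.965), the choline transporter gene Slc44a1 (0.962) and the annexin gene Anxa1 (0.957). Twist1 was most like Tnrc18 (0.924), Nfatc4 (0.912) and the lamin gene Lmna (0.906), and Twist2 most like Plac8 (0.939), the cyclin-dependent kinase inhibitor gene Cdkn1a (0.938) and Celf2 (0.932). Id3 was most like Cited2 (0.90), Klf6 (0.883) and Ccnd3 (0.871), and the first Id1 probe most like Olfr1380 (0.911), Amz1 (0.901) and Slc3a2 (0.871). Among the members themselves Id1 and Id3 were the most alike (r = 0.844), followed by Id2 and Twist1 (0.735) and Id3 and Twist2 (0.734). The most opposed were Twist1 with Twist2 (-0.683) and Id2 with Id4 (-0.65).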

How the data were processed

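RNA of 16 samples (4 groups of 4) was measured on 2-colour arrays. Per the labels, Cy5 marked the sample and Cy3 a common pool. The deposited values are log ratios, taken as log2 in the direction sample over pool. The sources used here do not state the log base, background correction or normalization. If the base were another, each change would scale by 1 constant. Per the design text the authors fitted linear models in limma. Of 38467 probes, 29456 named 1 gene, 760 several and 8251 none. Symbols were updated by Entrez identifier in a RefSeq table (GRCm38.p6), which held 28735, and 721 kept the platform's symbol. No probe position is given, as the files name no build.

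Here limma 3.58.1 in R 4.3.3 fitted 4 group means over 16 arrays with lmFit and eBayes, with no further normalization (12 residual and 3.19 prior degrees of freedom). P-values were adjusted by Benjamini-Hochberg over all probes per contrast, and a gene passed with 1 probe at an adjusted p under 0.05. The design text's rule, log-odds above 0, was an alternative. SE is that of the contrast, n = 4 arrays per group. It rests on 1 variance per probe over all groups. Precision is limited by how many arrays there are, and no signal over background can be given. Named were all members and, per list, up to 4 genes that passed in a dex contrast with the largest change, 9 genes in every case (Tcf3, Tcf4, Tcf12, Bmp4, Smad6, Smad7, Notch1, Jag1, Rbpj), and the 3 genes most like each member that passed. Where a gene has several probes, the quoted one has the smallest p in the F test of both dex contrasts. Members and lists were chosen with earlier results of these data known. The fit was tested on simulated data with 1 noise level per probe for all arrays, so unequal noise between arrays was not covered. Alternatives covered weighting, normalization, filters, the replicate number as a block, and leaving out arrays.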

Additional observations from a re-analysis of the deposited data

Results flagged for a closer look

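The effect of dex on Id2 differed between the times, with a difference of -0.89 on the log2 scale (adjusted p = 0.0247 in the limma interaction contrast). For Id4 the difference was 1.27 (adjusted p = 3.50e-04), and the sign of the change itself turned from -0.29 at 2 h, which did not pass, to 0.99 at 36 h. Of 36 groups of 4 values, 2 held an array far from the other 3 by Dixon's criterion, which flags about 1 in 20 groups by chance. Twist1 was at -0.55 in dex 36 h replicate 2, and Hey1 was at 0.15 in dex 2 h replicate 1.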

How the results depend on the processing

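Counts of members that passed were recomputed under 10 other settings and without each array. At 2 h the count of 3 was 2 or 3 in all of these, and Id2 was lost with log-odds above 0. At 36 h the count of 6 was 2 with log-odds above 0 (Id2 and Id4) and 4 to 6 without single arrays. For the difference between effects it was 1 to 3 without single arrays. In DMSO over time the count of 2 (Id1 and Id4) became 0 with the replicate number as a block, in a fit of the DMSO groups alone, and without the flattest probes, and 0 to 3 without single arrays. In dex over time it was 1 in a fit of the dex groups alone (Id4, without Id2), 4 with array weights (Id1 and Twist2 as well as Id2 and Id4) and 1 to 3 without single arrays. The number of all genes that passed also varied, and it too was larger with array weights in these 3 contrasts. It ran from 456 to 1847 for the difference (683 as reported), from 94 to 750 in DMSO over time (248) and from 167 to 3973 in dex over time (478). The replicate block changed no other count of members. The sign of 5 results that did not pass turned with other settings. With quantile normalization Hey1 at 36 h gave -0.035. With array weights Hes1 gave 0.16 for the difference between effects, -0.11 in DMSO over time and 0.049 in dex over time, and Twist1 gave 0.0040 in dex over time. Without single arrays such values ranged from -0.025 to 0.031 for Hey1 at 36 h, from -0.48 to 0.020 and from -0.31 to 0.19 for the second Id1 probe (difference between effects, DMSO over time), from -0.22 to 0.072, from -0.070 to 0.15 and from -0.18 to 0.11 for Hes1 (difference, DMSO and dex over time), and from -0.11 to 0.017 for Twist1 in dex over time. The cause was not tested. Over all settings and left-out arrays the number of genes that passed ran from 294 to 781 at 2 h (625 as reported) and from 1028 with log-odds above 0 to 9087 with array weights at 36 h (2300), where array weights also gave 5 other Hes and Hey genes (0), 20 Notch genes (4), 19 BMP and Smad genes (10) and 8 E protein and related genes (4). At 2 h the BMP and Smad count fell to 2 (7) and the Notch count to 1 (2) in a fit of the 2 h arrays alone. Deviations of same-numbered arrays correlated above 0.1 in 5 of 24 pairs (median r = -0.0031, highest 0.344), and 6 of 16 arrays correlated best with their own number. These values cannot settle whether the replicate numbers paired the samples, as noise in the arrays can hide a pairing. The sample titles do not state it. With 4 arrays a group and no signal over background, small changes cannot be resolved.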
